A study of Mus musculus with 44 samples.

Results

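The proteasome subunit genes are the 40 of 8203 rows of the deposited expression table whose symbol begins with Psma, Psmb, Psmc, Psmd or Psme and a digit. They were measured by TRAP-seq, which sequences the RNA pulled down with tagged ribosomes and was here aimed at Crh neurons of the mouse amygdala. The rule took in 39 proteasome genes and 1 row that matches by name only, Psmc3ip, whose product binds the Psmc3 protein and acts in meiotic recombination. Psmc3ip is given on its own and is not counted below. The 39 genes comprise the 7 alpha subunits, the 7 constitutive beta subunits, the immunoproteasome subunit Psmb10, the 6 ATPases, 14 Psmd genes and 4 activator genes.

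All mice were adult CRH-TRAP animals, in which Cre recombinase driven by the Crh promoter switches on a fusion of eGFP and ribosomal protein L10a, and each sample was the bilateral amygdala punches of 1 mouse. The 16 TA mice (tone alone, 10 males and 6 females) heard the tones with the shocks left out. The 12 FC mice (fear conditioning, 6 males and 6 females) received tones paired with shocks. The 16 EXT mice (extinction, 10 males and 6 females) were conditioned in the same way and on the next day heard the tones without shocks in a new context. Because the tag depends on Cre under the Crh promoter, it marks cells in the punch that express or have expressed this transgene. The pulldown also held markers of other cell types, given below, so levels of the members cannot be assigned to tagged cells alone. The measurements are of ribosome-bound RNA, not protein or proteasome activity. In these bulk samples fewer cells of a type and less RNA per cell cannot be told apart.

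The proteasome is the large protease that degrades proteins tagged with ubiquitin. Its core particle is a barrel of outer alpha rings and inner beta rings, with the proteolytic sites in 3 beta subunits. A regulatory particle caps the barrel, with a base of ATPases that unfold substrates and a lid that includes the deubiquitinase that removes the ubiquitin chain. In neurons, protein degradation by the proteasome is known as a process that takes part in synaptic plasticity and in fear memory in the amygdala.

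Effective library sizes ranged from 12802113 to 20440351 reads, with medians of 18015590 in TA, 16977973 in FC and 15412341 in EXT mice. The sample labels give 5 batches without saying what a batch was. Batches 1, 2 and 5 hold mice of all conditions, whereas batch 3 (5 mice) and batch 4 (1 mouse) hold only EXT mice, so that in those batches condition and batch cannot be told apart. Of 13 markers of Crh neurons and central amygdala GABAergic neurons, 12 were in the table, Crh, Gad1 and Gad2 among them, while Slc32a1 was not. Their summed level had a median of 6262 cpm in TA, 5373 cpm in FC and 4778 cpm in EXT mice. All 6 oligodendrocyte markers were also in the table, with medians of 3286, 3235 and 3697 cpm. Of 7 choroid plexus markers 4 were in the table, with medians of 6543, 1624 and 2609 cpm. Their sum ranged from 185.9 to 51050 cpm between EXT mice. All 7 astrocyte markers had medians of 387.1, 563.8 and 495.1 cpm. The 2 of 6 glutamatergic markers in the table had 78.72, 86.12 and 126.6 cpm. None of the 6 microglial or 4 endothelial markers was in the table.

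The members were among the well covered genes. The median member had 3765.5 reads in a library, compared with 886 reads for all rows, and the lowest value of any of the 40 rows was 72 reads, for Psmc3ip. Differences between mice were small: within the 8 combinations of batch and condition that hold at least 3 mice, the median SD of the 39 genes was 0.20 on the log2 cpm scale, against 0.29 for all rows, and 36 of the 39 lay below that median. Psmd7, a lid subunit without catalytic activity, varied least (SD 0.11), and Psme4, which encodes the activator PA200, varied most (SD 0.42).

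Levels of different genes were compared per length of transcript, in log2 RPKM. Psmb6, which carries the caspase-like site of the core, had the highest level, 9.34 ± 0.27 (SD, n = 44 mice). The other catalytic subunits lay lower, at 8.12 ± 0.31 for Psmb5, which carries the chymotrypsin-like site, and 6.30 ± 0.22 for Psmb7, which carries the trypsin-like site. The immunoproteasome counterpart of Psmb7, Psmb10, was measured at 6.004 ± 0.30, so that its level overlapped with that of Psmb7 within their spread.

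Among the other classes, Psmd2, a scaffold of the base, had 9.07 ± 0.35, the ATPase Psmc5 had 8.93 ± 0.53, and the alpha subunits ranged from 7.40 (Psma5 and Psma2) to 8.91 (Psma3). Psme4 had the lowest level of the 39 genes, 4.48 ± 0.45, and the assembly chaperone Psmd10 the next lowest, 5.84 ± 0.17. Neighbours in the order of the 39 genes differed by less than the larger of their SDs, apart from Psma3 and Psma7 (8.57) and from Psmd10 and Psme4. Several positions depend on which transcript sets the length. With the longest annotated transcript in place of the median one, Psmd2 lay at 6.91 and Psme4 at 1.17, while Psmb6 stayed at 9.34. Psma3 then lay at 7.18, below Psma7 at 8.41, so that their order was reversed. Psme3 moved from 7.99 to 6.06 and Psmd11 from 7.77 to 5.78. Psmc3ip had 3.36 ± 0.43.

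**Figure D1:**
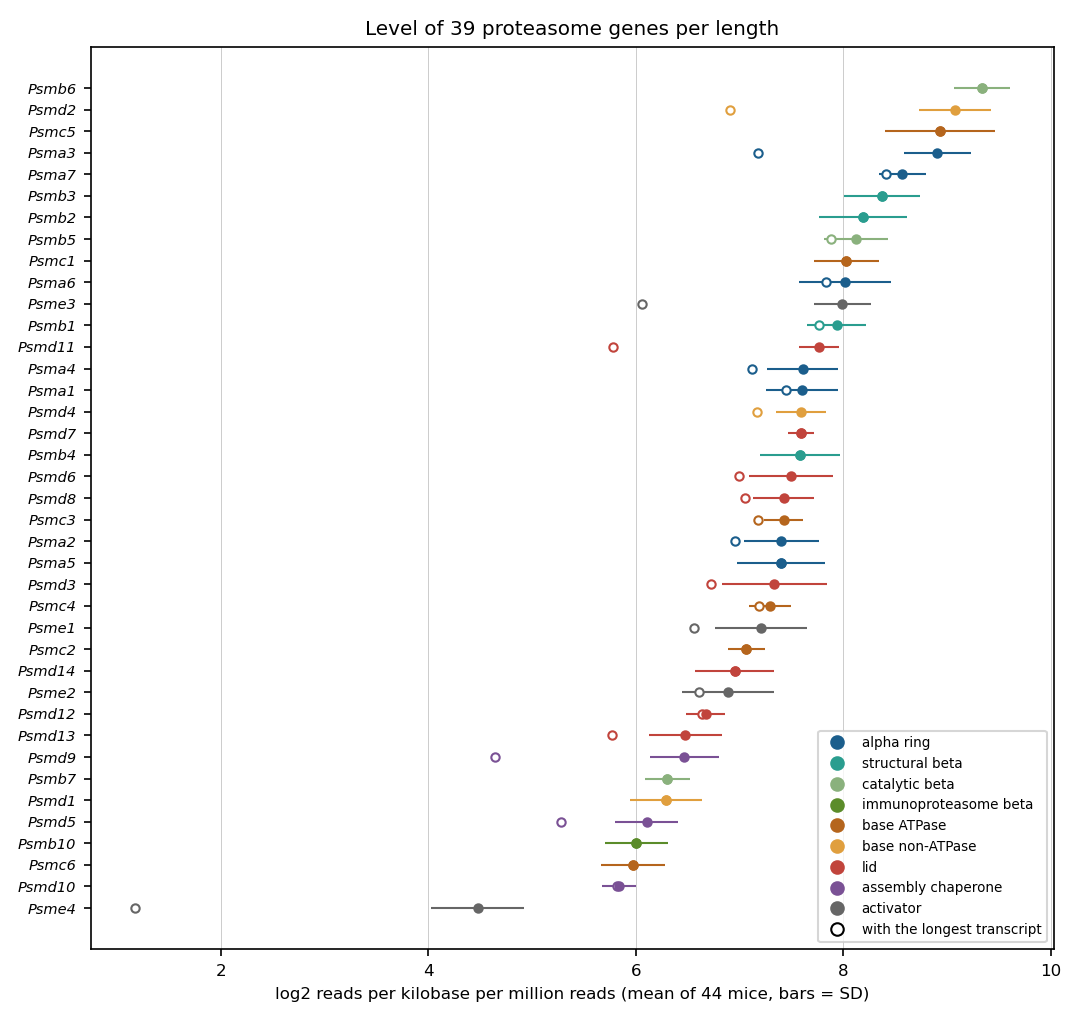
Level of each of the 39 proteasome genes in log2 RPKM (labelled on the axis in words), as the mean of 44 mice with bars of 1 SD, using the median length of the annotated coding transcripts (filled points) or the longest transcript (open points). Psmb6 is highest at 9.34 with either length, and Psme4 is lowest at 4.48 or 1.17.

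The first question was whether extinction altered the ribosome-bound RNA of the proteasome genes relative to tone alone. With batch as categories, the 6 EXT mice of batches 3 and 4 enter only through the spread and sex terms. The EXT vs. TA difference therefore rests on the 10 EXT mice of batches 1, 2 and 5 (2, 3 and 5 mice), and so does EXT vs. FC. None of the 39 genes passed an FDR of 0.05 in limma with batch as categories and sex as covariates, compared with 0.0244% of all rows (2 of 8203, both lower in EXT). At an unadjusted p under 0.05 the count was 2 of 39 (5.13%), compared with 21.1% of all rows, and both were higher in EXT, compared with 10.2% of all rows in that direction. The members were spread on both sides of 0, with 21 higher and 18 lower in EXT and a median log2 difference of 0.012. The median size of the difference, whatever its sign, was 0.08 for the 39 genes and 0.13 for all rows.

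The intervals limit how large these differences could be. In EXT vs. TA, 38 of the 39 intervals of 95% lay within 0.5 log2 units of 0, the exception being that of Psmc5, and the median half-width was 0.17. The ribosomal protein genes, another set of genes for subunits of a large complex, gave a different picture in the same fit, since 78 of 81 were higher in EXT, with a median log2 difference of 0.28, although none of them passed the FDR either. With library size as a covariate, the median of the ribosomal protein genes was 0.13 and that of the proteasome genes 0.0097.

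Psme2 encodes the beta subunit of PA28, the interferon-inducible activator that opens the core particle without ATP. Its level was 5.48 to 6.86 log2 cpm in TA mice (median 6.63), 5.66 to 7.47 in FC mice (median 6.59) and 6.02 to 7.27 in EXT mice (median 6.85). The conditions overlapped widely, and 12 of 16 EXT mice lay above the TA median.

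Within batches, the mean of the EXT mice was above that of the TA mice by 0.31 in batch 1, 0.54 in batch 2 and 0.11 in batch 5, and in batch 2 the 3 EXT mice (6.94 to 7.27) did not overlap with the 5 TA mice (6.46 to 6.73). The difference was 0.29 ± 0.085 (SE) in limma, the highest of the 39 genes, with p = 0.0020 and an adjusted p of 0.14. It passed the FDR when batches 3 and 4 were left out (0.28 ± 0.073, adjusted p = 0.037), where 2.15% of all rows passed in that direction. It also passed when EXT mouse 23 of batch 3 (6.12, the lowest EXT mouse of that batch) was left out (0.28, adjusted p = 0.029), where 472 of 8203 rows passed. Mice of batches 3 and 4 enter the fit with batch as categories only through the spread and sex terms, and leaving them out hardly moved the difference itself. With log2 library size as a covariate it was 0.22 with an adjusted p of 0.88. Psme2 has a close relative, Psme2b, which was not among the rows used here, and how reads shared by the pair were counted is not given in the sources used here.

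Its partner in PA28, Psme1, showed no comparable difference. Psme1 had medians of 6.997 log2 cpm in TA, 6.75 in FC and 6.66 in EXT mice, and its EXT vs. TA difference was 0.04 ± 0.082 (SE, adjusted p = 0.79). The genes lie near each other on chromosome 14 (GRCm38), Psme1 at 55578123 to 55581529 on the plus strand and Psme2 at 55587441 to 55591113 on the minus strand. Some coding exon bases of Psme1 also belong to Emc9, so that part of its reads may come from there. Whether the differences of Psme1 and Psme2 differ from each other was not tested.

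Of the other activator genes, Psme3 lay at 7.14 to 7.62 (median 7.39) in TA, 7.12 to 7.55 (median 7.32) in FC and 7.25 to 8.37 (median 7.51) in EXT mice in log2 cpm. Psme4 lay at 3.17 to 4.49 (median 4.00) in TA, 3.35 to 4.66 (median 3.80) in FC and 3.11 to 4.84 (median 3.78) in EXT mice. The conditions overlapped in both. Psme3, which encodes the nuclear activator PA28 gamma, differed by 0.02 ± 0.075 in EXT vs. TA, and Psme4 by 0.0049 ± 0.19. Neither passed the test. The interval of Psme4 reached from −0.38 to 0.39, so that a change of that size was not detectable for this lowly expressed gene.

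In log2 cpm, Psmb5 was measured at 7.28 to 8.06 (median 7.90) in TA, 7.23 to 8.01 (median 7.85) in FC and 6.86 to 8.14 (median 7.68) in EXT mice. Psmb6 was measured at 8.67 to 9.22 (median 9.03) in TA, 8.86 to 9.46 (median 9.11) in FC and 8.19 to 9.71 (median 8.89) in EXT mice. Psmb7 was measured at 6.38 to 6.82 (median 6.59) in TA, 6.24 to 6.82 (median 6.61) in FC and 5.73 to 6.78 (median 6.45) in EXT mice. In all 3 catalytic genes the lowest mouse was an EXT mouse of batches 3 and 4 and the conditions overlapped. Psmd14, the deubiquitinase of the lid, was measured at 7.04 to 7.99 (median 7.81) in TA, 7.11 to 8.12 (median 7.73) in FC and 6.65 to 7.93 (median 7.51) in EXT mice. Psmd4, which binds ubiquitin chains, was measured at 7.92 to 8.29 (median 8.03) in TA, 7.68 to 8.37 (median 8.03) in FC and 7.42 to 8.50 (median 7.91) in EXT mice. The EXT mice again reached lowest in both genes, and all conditions overlapped.

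The subunits that cut proteins and ubiquitin chains, and Psmd4, which binds these chains, showed no called difference either. Psmb5 differed by 0.05 ± 0.083, Psmb6 by 0.10 ± 0.090 and Psmb7 by −0.05 ± 0.074 log2 units (SE) in EXT vs. TA. For Psmd14 the difference was −0.11 ± 0.10, and for Psmd4 it was −0.0022 ± 0.066. The adjusted p of these 5 genes ranged from 0.54 (Psmd14) to 0.99 (Psmd4) in limma.

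By class, the 4 structural beta subunits (median 0.08) and the 4 activators (0.03) were all above 0 in EXT vs. TA, 3 of 7 alpha subunits (−0.04), 2 of 3 catalytic beta subunits (0.05) and 4 of 6 ATPases (0.01) were above 0, and the 3 non-ATPase subunits of the base (−0.08) and 6 of 8 lid subunits (−0.08) were below 0. Psma3, an alpha subunit, was the other gene with p under 0.05 (0.14 ± 0.066, p = 0.042, adjusted p = 0.22). On the lower side the smallest p belonged to Psmd2 (−0.16 ± 0.078, adjusted p = 0.24), the assembly chaperone Psmd5 (−0.16 ± 0.085, adjusted p = 0.27) and Psmd13 (−0.20 ± 0.11, adjusted p = 0.31). No class held a gene that passed the FDR. Psmc3ip had a difference of 0.28 ± 0.14 (adjusted p = 0.25).

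**Figure D2:**
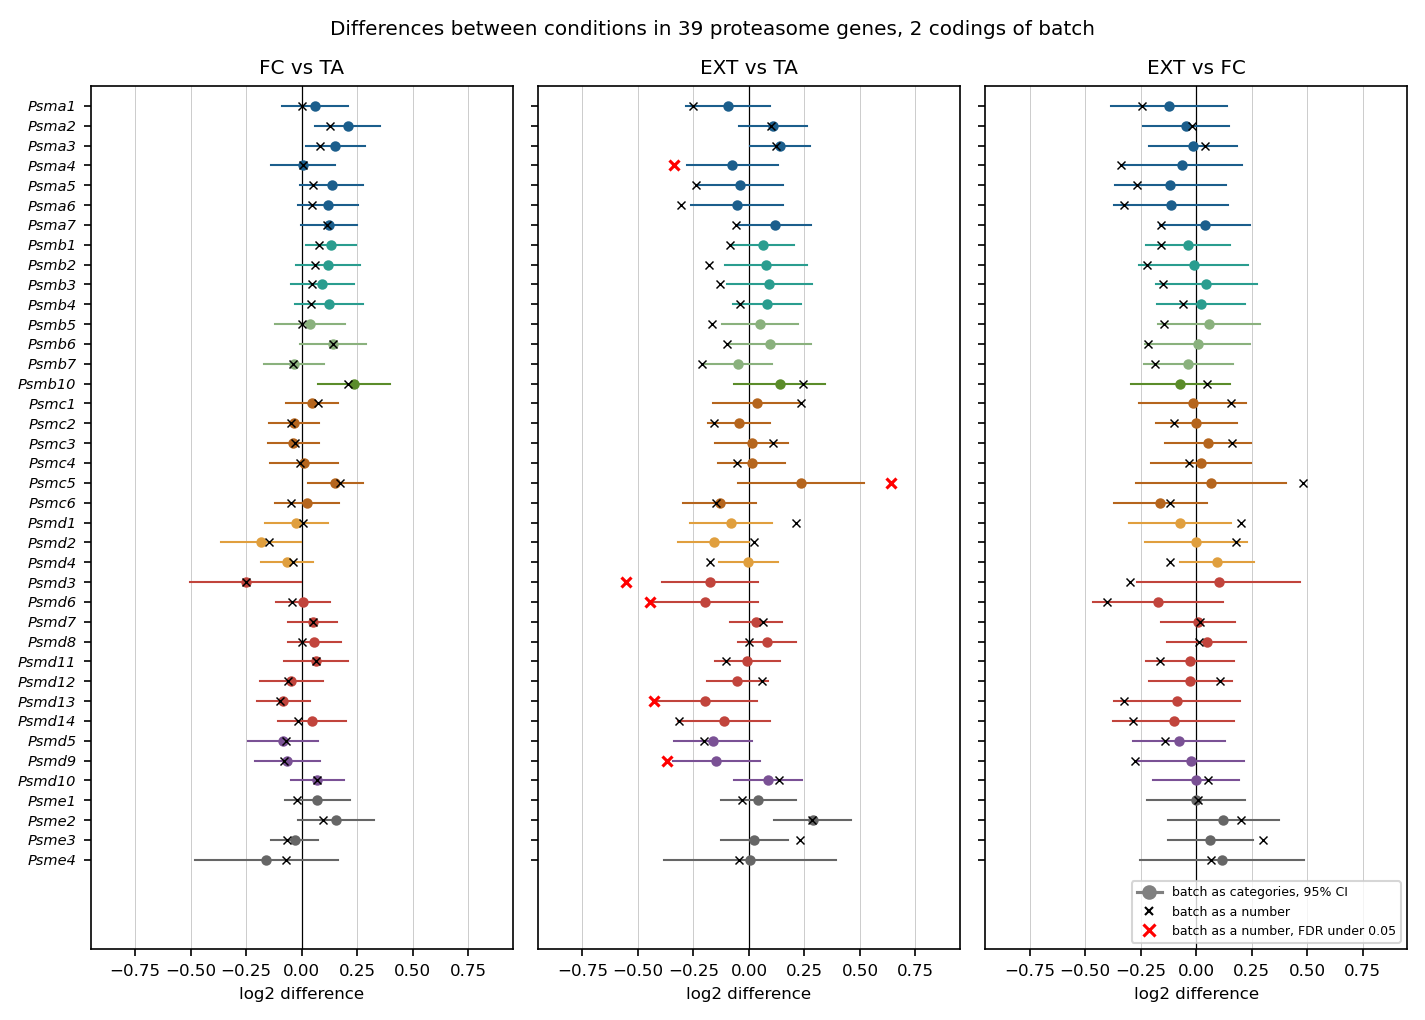
Log2 difference of each of the 39 genes in FC vs. TA, EXT vs. TA and EXT vs. FC. Points with bars are limma estimates with 95% intervals and batch as categories, crosses are estimates with batch as a number, and red crosses mark the 6 genes past an FDR of 0.05 with that coding, Psmc5 higher and Psmd3, Psmd6, Psmd13, Psmd9 and Psma4 lower, all in EXT vs. TA.

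The coding of batch decided the calls. With the batch number entered as a number, as if the batches lay at equal steps on a scale, 6 of the 39 genes passed the FDR in EXT vs. TA, 1 higher (10.4% of all rows passed in that direction) and 5 lower (11% of all rows), and in either direction 21.4% of all rows passed. Psmc5, an ATPase of the base, was 0.64 ± 0.18 higher (adjusted p = 0.017). Psmd3, a structural lid subunit, had the largest difference on the lower side (−0.56), followed by Psmd6 and Psmd13, also of the lid, the assembly chaperone Psmd9 and the alpha subunit Psma4. With batch as categories the same 6 genes had differences of 0.23, −0.17, −0.20, −0.20, −0.15 and −0.07 and adjusted p from 0.31 to 0.70. With batch as a number and batches 3 and 4 left out, none of the 39 genes and 3 of 8203 rows passed.

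Psmc5 and Psmd3 also had the largest differences, in either direction, between the EXT mice of batches 3 and 4 and the other EXT mice. Psmc5 was 8.87 to 9.23 log2 cpm in the 16 TA mice (median 9.05) and 8.94 to 9.56 in the 12 FC mice (median 9.22). In EXT mice it was 9.46 to 10.8 in the 6 of batches 3 and 4 (median 10.4) and 8.89 to 10.4 in the 10 of the other batches (median 9.04). The groups of EXT mice overlapped because EXT mouse 21 of batch 2, at 10.4, and EXT mouse 26 of batch 1, at 10.0, lay above the lowest mouse of batches 3 and 4, mouse 23 at 9.46. All TA mice were below mouse 23, while FC mice 13 (9.56), 17 (9.55) and 16 (9.47) were above it.

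Psmd3 showed the opposite arrangement. It was 7.88 to 8.33 log2 cpm in TA mice (median 8.05), 6.24 to 7.54 in the EXT mice of batches 3 and 4 (median 6.94) and 7.16 to 8.17 in the other EXT mice (median 8.01). EXT mouse 21 of batch 2 was again nearest to batches 3 and 4, at 7.16, and EXT mouse 23 of batch 3 was nearest to the other batches, at 7.54. In FC mice the range was 6.45 to 8.38 (median 7.98), and the lowest value, 6.45, came from mouse 47 of batch 5, whose Psmd2 was also the lowest of all mice at 7.34.

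Over the 39 genes, the mean of the 6 EXT mice of batches 3 and 4 differed from that of the other 10 EXT mice by a median of −0.26 log2 units, with a range from −1.002 (Psmd3) to 1.07 (Psmc5) and 10 genes higher. All 7 alpha and all 7 constitutive beta subunits were lower, from −0.07 (Psma2) to −0.72 (Psma6 and Psmb2), whereas Psmc5, Psmd1, Psmc1, Psme3 and Psmd2 were higher by 0.49 to 1.07. For none of the 39 genes did the values of these groups of mice fail to overlap, compared with 1.93% of all rows. Since batches 3 and 4 hold no TA or FC mice, a difference of batch and one of the mice cannot be told apart. The summed Crh and central amygdala markers had a median of 2656 cpm in these 6 mice and 6075 cpm in the other 10 EXT mice, the summed oligodendrocyte markers 6915 and 2884 cpm, and in EXT mouse 21 the sums were 2477 and 2719 cpm. The part of these levels in the differences was not tested.

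**Figure D3:**
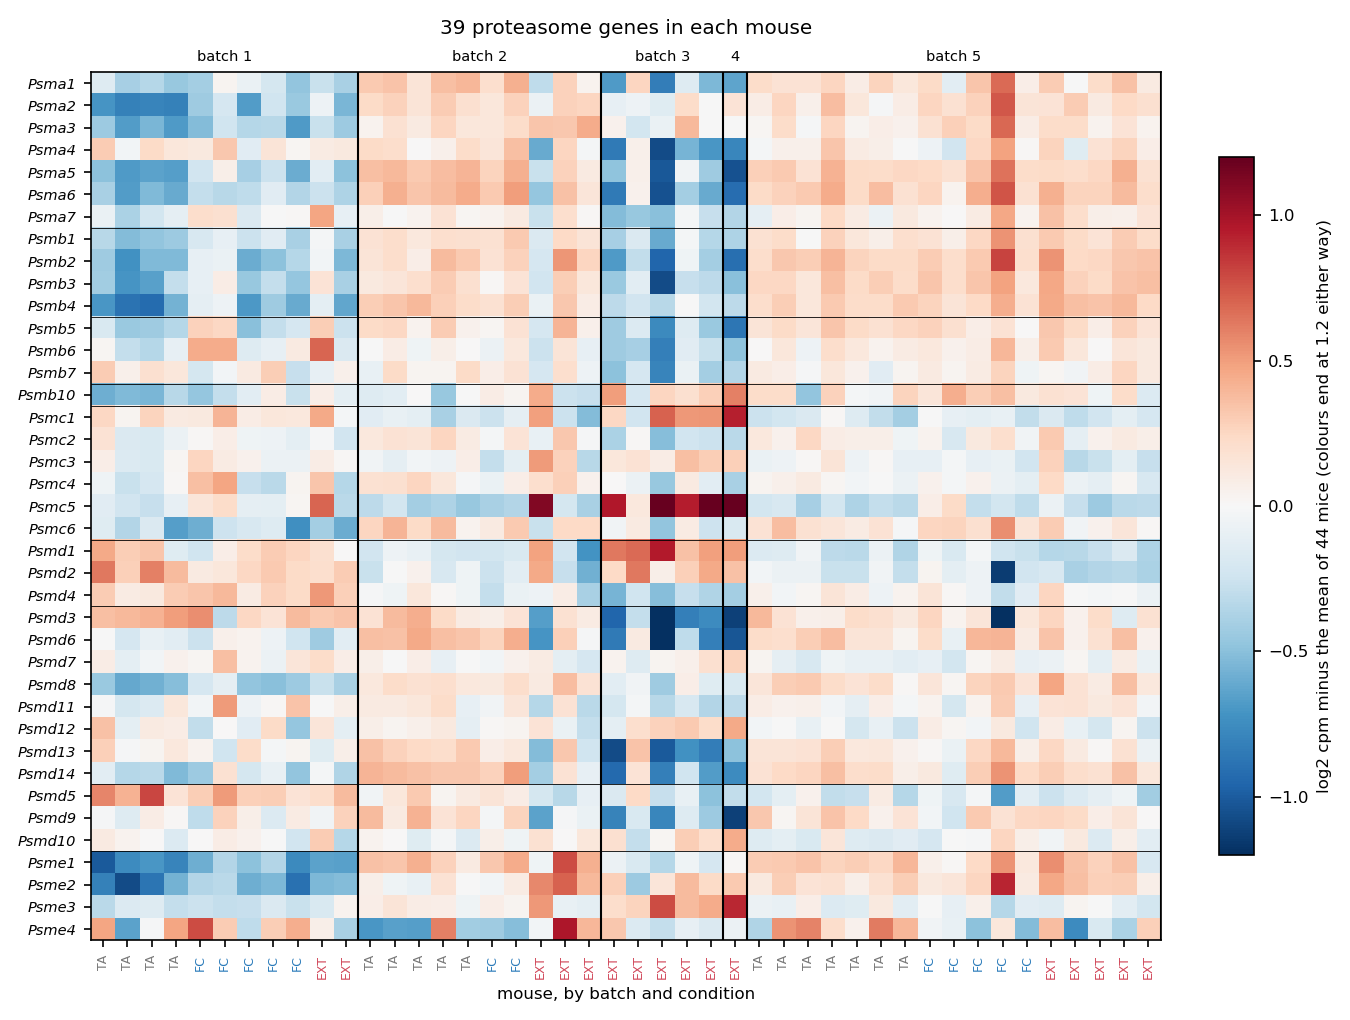
Each column is 1 mouse, ordered by batch and condition, each row 1 of the 39 genes, ordered by class, and colour gives the log2 cpm minus the mean of all 44 mice. The left block (batch 1) is lower in most alpha subunits, structural beta subunits, Psme1 and Psme2, and the 6 EXT mice of batches 3 and 4 are higher in Psmc5 and lower in Psmd3, and all but mouse 23 are lower in Psmd6.

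**Figure D4:**
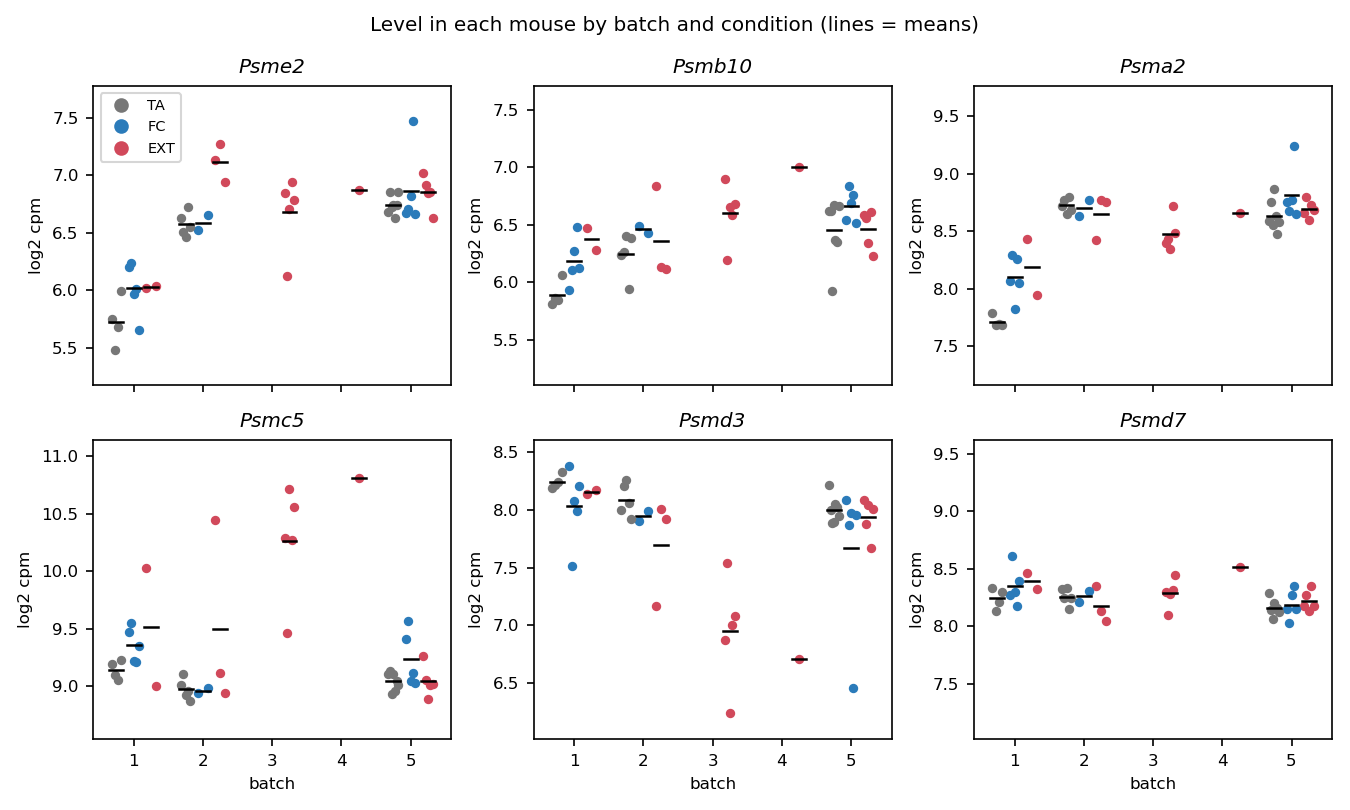
Log2 cpm of 6 genes in each mouse by batch, with TA in grey, FC in blue and EXT in red and lines at the means; every panel spans the same range. Psme2 and Psma2 are lowest in batch 1, Psmc5 is highest and Psmd3 lowest in the EXT mice of batches 3 and 4, and Psmd7 stays between 8.03 and 8.61 in all mice.

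Fear conditioning was compared with tone alone in batches 1, 2 and 5, to which all FC and TA mice belong. In FC vs. TA, none of the 39 genes passed the FDR in limma, as was the case for all rows (0%). At an unadjusted p under 0.05 there were 7 of 39 (17.9%), close to the 16.8% of all rows. A total of 26 genes were higher and 13 lower in FC, with a median log2 difference of 0.045.

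The genes on the higher side included most of the core particle. All 7 alpha subunits were above 0 (median 0.12), as were all 4 structural beta subunits (0.12), while the 3 non-ATPase subunits of the base were below 0 (−0.07). None of these genes was called, and subunits of 1 complex that vary together between mice are not independent counts.

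The smallest p belonged to Psmb10, the beta subunit that replaces Psmb7 in immunoproteasomes. It was 5.81 to 6.67 log2 cpm in TA mice (median 6.31), 5.93 to 6.83 in FC mice (median 6.49) and 6.12 to 6.999 in EXT mice (median 6.57). FC mice were higher than TA mice by 0.29 in batch 1, 0.21 in batch 2 and 0.21 in batch 5, with overlap in batches 1 and 5 and none in batch 2, where there were 2 FC mice. The difference was 0.24 ± 0.079 (SE, p = 0.0059, adjusted p = 0.15), and in EXT vs. TA it was 0.14 ± 0.10.

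Psma2, an alpha subunit, was next, with 7.68 to 8.87 log2 cpm in TA (median 8.61) and 7.83 to 9.24 in FC mice (median 8.64). Its difference of 0.21 ± 0.071 (adjusted p = 0.16) came from batches 1 and 5, where the means differed by 0.39 and 0.18, and not from batch 2, where they differed by −0.02. Psmc5 followed with 0.15 ± 0.059 (adjusted p = 0.20). On the lower side, Psmd2 had the smallest p, with −0.18 ± 0.088 (adjusted p = 0.29), and its difference lay between −0.22 and −0.10 when each mouse was left out in turn. Psmd3 had −0.25 ± 0.12 (adjusted p = 0.29), and between −0.29 and −0.12 in the same way. Psmd13, of the lid, had −0.08 ± 0.059 (adjusted p = 0.47).

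In EXT vs. FC, none of the 39 genes passed the FDR or had a p under 0.05 in limma, compared with 0% and 4.19% of all rows. The differences ran from −0.17 (Psmd6) to 0.12 (Psme2) with a median of −0.011, and all 39 intervals lay within 0.5 log2 units of 0. The smallest p belonged to the ATPase Psmc6 (−0.16 ± 0.10), Psmd6 (−0.17 ± 0.14) and Psma1 (−0.12 ± 0.13) on the lower side and to Psmd4 (0.09 ± 0.082), Psme2 (0.12 ± 0.12) and Psme3 (0.06 ± 0.093) on the higher side. With batch as a number, 6 of the 39 genes had a p under 0.05 (19.3% of all rows) and none passed the FDR (0% of all rows). This comparison shares its EXT mice with EXT vs. TA and its FC mice with FC vs. TA.

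Females and males differed in none of the 39 genes at an FDR of 0.05, as was the case for all rows (0%), and in 2 genes at an unadjusted p under 0.05 (4.13% of all rows), Psmd2 and Psmd12, both higher in females. The EXT vs. TA difference did not differ between the sexes at the FDR in any gene (0% of all rows), with 2 of the 39 genes at a p under 0.05 (6.02% of all rows). These were Psmc3, an ATPase of the base (interaction 0.33 ± 0.14, adjusted p = 0.75), and Psmd4 (0.26 ± 0.11, adjusted p = 0.77). Of the 39 interactions 32 were above 0, that is, the EXT minus TA difference was higher in females. Subunits that vary together between mice are not independent counts. In males alone 16 of 39 genes were higher in EXT than in TA (median −0.03), and in females alone 24 (median 0.08), with none called in either sex (0.0122% of all rows in males and 0% in females).

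More of the proteasome genes passed the test for batch than for condition. Tested across batches 1, 2 and 5 with condition and sex in the model, 23 of 39 genes passed the FDR, or 59.0%, close to the 55.3% of all rows. Across all 5 batches there were 33 of 39, compared with 72.8% of all rows. Of the 23 genes, 18 were higher in batch 5 than in batch 1 and 5 were lower, while of all rows 2178 were called and higher and 2360 were called and lower.

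The direction differed between the parts of the complex. The 4 structural beta subunits were all called and 0.50 to 0.80 higher in batch 5 than in batch 1, and 5 of 7 alpha subunits were called and higher, Psma4 (−0.09) and Psma7 (0.10) being the exceptions. Of the catalytic subunits only Psmb5 was called (0.37), while Psmb6 (0.06) and Psmb7 (0.01) were not. Psme1 and Psme2 had the largest differences, 0.90 and 0.91, and Psme3, Psmb10, Psmc6, Psmd6, Psmd8 and Psmd14 were also called and higher.

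The genes lower in batch 5 were Psmd1, Psmd2 and Psmd4, all 3 of the non-ATPase subunits of the base, by −0.29, −0.46 and −0.24, the assembly chaperone Psmd5 by −0.54 and the ATPase Psmc1 by −0.29. Batch 2 was on the side of batch 5 in each of these groups, with medians against batch 1 of 0.61 for the alpha subunits, 0.53 for the structural beta subunits and −0.31 for the 3 base subunits. In Psme2, for example, the 11 mice of batch 1 lay between 5.48 and 6.24 log2 cpm and the 17 mice of batch 5 between 6.62 and 7.47, without overlap.

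Mice also differed from each other within a batch and condition, and the subunits of the core particle did so together. After subtraction of the mean of each batch and condition, over 39 mice in 8 combinations, the 91 pairs of the 14 constitutive core genes had a median Pearson correlation of 0.66, from 0.18 to 0.91, and every pair was above 0. The 136 pairs of the 17 regulatory particle genes had a median of 0.22, from −0.75 to 0.87. Over all 33640503 pairs of rows the median was −0.0054. These are descriptions, since the values of a mouse share 1 library, its depth and its mixture of cells.

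The co-variation of the core genes was not the property of 1 condition or mouse. The median over the 91 pairs was 0.54 in 16 TA mice, 0.68 in 10 FC mice and 0.79 in 13 EXT mice, 0.72 in the 17 mice of batch 5 and 0.66 without batch 3, and between 0.64 and 0.71 when each mouse was left out in turn. The highest pair correlations joined genes of the same and of different parts of the complex, with 0.92 for Psma1 and Psmd14, 0.91 for the alpha subunits Psma4 and Psma6 and 0.91 for Psma6 and Psmd6. The catalytic subunit Psmb5 varied with Psmb6 (0.86) but less with Psmb7 (0.29).

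A few members went the other way. Psmc5 correlated at −0.75 with Psmd6 and −0.73 with Psma6, and at 0.84 with the ATPase Psmc1. Psme3 correlated at −0.67 with Psmb1 and −0.64 with Psmb3, and at 0.66 with Psmd1. The base subunits Psmd1 and Psmd2 were below 0 with every constitutive core gene, down to −0.56 (Psmd1 with Psma7) and −0.57 (Psmd2 with Psma2). Psme1 and Psme2, which form 1 activator, correlated at 0.49.

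The genes outside the family whose deviations were most like the mean of the 39 genes were Ndufa10, a complex I subunit (r = 0.81), the helicase gene Eif4a3 (0.81), the cyclophilin gene Ppia (0.80), Dync2li1 (0.79) and Vdac3 (0.79), over the same 39 mice. That mean had a correlation of −0.17 with log2 library size and of −0.0069 with the mean of the 81 ribosomal protein genes.

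**Figure D5:**
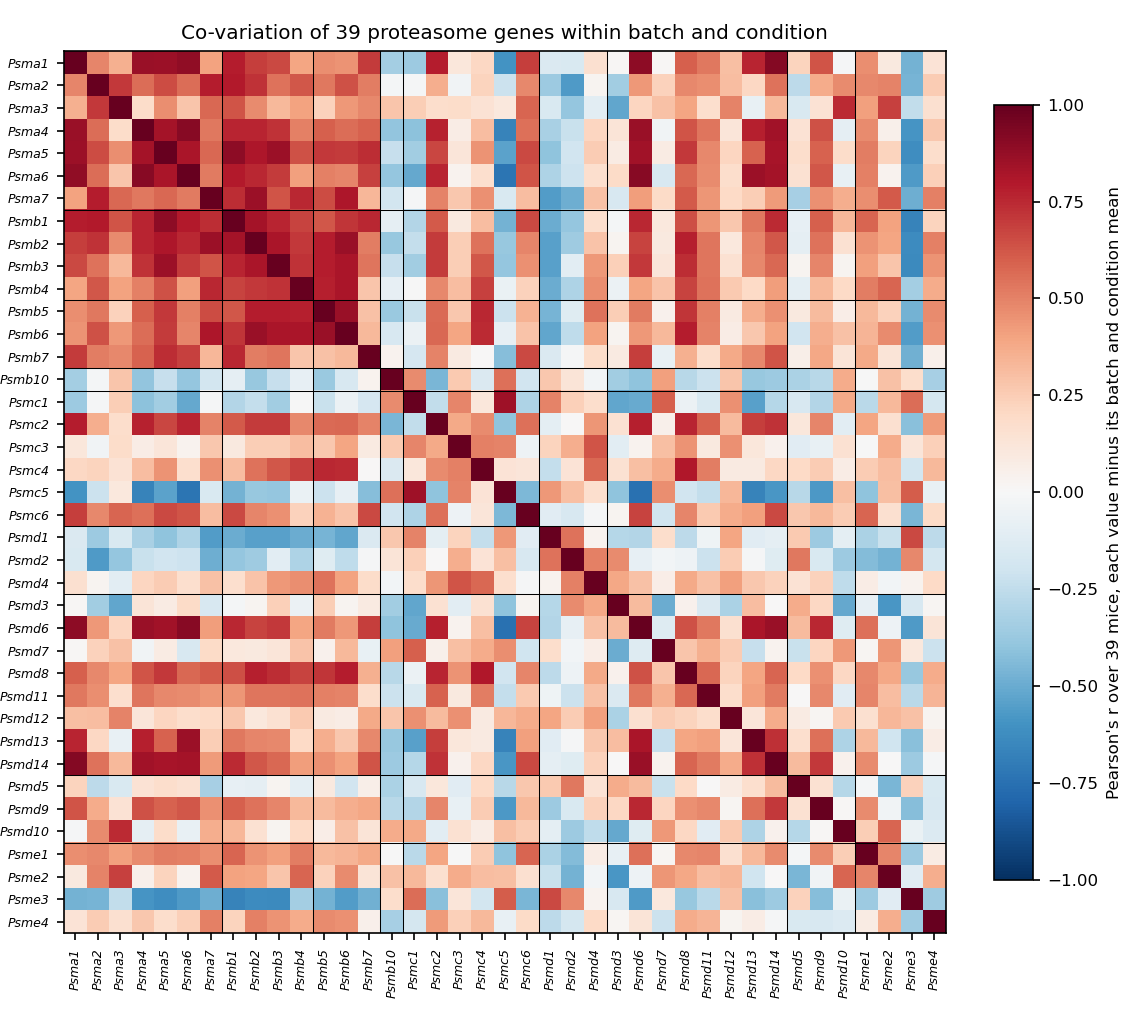
Pearson correlation between each pair of the 39 genes over 39 mice, after subtraction of the mean of each batch and condition, with lines between the classes. The core particle block at the top left is above 0 throughout, from 0.18 to 0.91, while Psmc5, Psme3, Psmd1 and Psmd2 are below 0 with most or all of its genes.

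Because the core genes varied together, the RefSeq promoters (GRCm38.p6) of the members were searched for short motifs, from 250 bases before to 50 bases after each start site and on both strands. Promoters were found for 34 of the 40 rows and not for Psmb1, Psmb2, Psmb7, Psmc3, Psmd3 and Psmd7. The 6 motifs were 2 forms of the antioxidant response element, the site of NRF1, a known activator of proteasome genes (TGACNNNGC and TGAGNNNGC), CCAAT, the ETS-type site CCGGAAG, the CREB site TGACGTCA and an interferon-type site, GAAA followed by any 2 bases and GAAA. A match is a description and not a bound site.

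The 120 bases before the start of 7 members are shown to set genes that varied together (Psma1, Psma5 and Psmd6), a catalytic subunit (Psmb5), genes that went the other way (Psmc5 and Psme3) and the gene with the smallest p in EXT vs. TA (Psme2) side by side. They are read 5′ to 3′ on the strand of the gene, and capitals mark matches to any of the 6 motifs.
Psma1 (chr7:114276117-114276236, minus strand): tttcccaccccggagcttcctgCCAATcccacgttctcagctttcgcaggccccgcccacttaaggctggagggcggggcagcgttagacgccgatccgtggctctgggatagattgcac
Psma5 (chr3:108256806-108256925, plus strand): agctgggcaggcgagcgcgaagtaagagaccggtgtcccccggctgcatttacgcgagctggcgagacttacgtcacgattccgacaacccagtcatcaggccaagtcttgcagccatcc
Psmd6 (chr14:14120946-14121065, minus strand): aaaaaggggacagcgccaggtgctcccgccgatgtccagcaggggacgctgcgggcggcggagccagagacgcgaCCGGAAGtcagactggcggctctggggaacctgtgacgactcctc
Psmb5 (chr14:54617996-54618115, minus strand): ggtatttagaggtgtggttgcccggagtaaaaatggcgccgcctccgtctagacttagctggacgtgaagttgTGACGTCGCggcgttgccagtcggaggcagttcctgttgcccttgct
Psmc5 (chr11:106256065-106256184, plus strand): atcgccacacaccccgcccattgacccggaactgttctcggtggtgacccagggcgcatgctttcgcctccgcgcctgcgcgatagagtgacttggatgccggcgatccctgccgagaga
Psme3 (chr11:101316093-101316212, plus strand): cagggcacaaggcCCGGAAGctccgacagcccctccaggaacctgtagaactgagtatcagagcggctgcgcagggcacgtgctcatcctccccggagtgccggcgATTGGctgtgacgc
Psme2 (chr14:55591102-55591221, minus strand): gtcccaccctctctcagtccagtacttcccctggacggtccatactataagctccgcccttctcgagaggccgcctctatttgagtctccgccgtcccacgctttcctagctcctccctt

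A gene can have several promoters, and a gene was counted if any of them matched. CCGGAAG was found in 13 of 34 members (38.2%, Psmc3ip among them), in 9.93% of the 27025 genes with a promoter and in 8.86% of the 32851 RefSeq promoters of the same length. Psma6 was the only core particle gene among the 13, so the motif was not a shared trait of the core genes that varied together. Psmd6 and Psme3, which correlated in opposite directions with the core genes, both hold it in the stretch shown above. CCAAT was found in 13 of 34 (38.2%), compared with 41.1% of all genes and 37.4% of all promoters, and occurs in Psma1 and, on the other strand, in Psme3.

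TGAGNNNGC was found in 12 of 34 (35.3%), compared with 19.8% of all genes and 17.6% of all promoters, and TGACNNNGC in 6 of 34 (17.6%), compared with 14% and 12.4%. Psmb5 holds the second, and in Psma5 a match to the first lies outside the stretch shown. The interferon-type site was found in 4 of 34 (11.8%), compared with 3.99% of all genes and 3.44% of all promoters, in Psme1 but not in Psme2. TGACGTCA, the full form of the CREB site, was found in no member, in 2.03% of all genes and in 1.79% of all promoters. Shorter forms of the CREB site were not searched.

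Other genes of the ubiquitin and proteasome pathway, taken from lists set by function, gave no call in the 3 comparisons with batch as categories. Of the 8 assembly chaperones measured, 3 of which are the members Psmd5, Psmd9 and Psmd10, 5 were higher in EXT vs. TA (median 0.03), with the smallest p for Psmg4 (0.32 ± 0.095, adjusted p = 0.14). Of 9 proteasome-bound factors and inhibitors 2 were higher (median −0.14), with the smallest p for the ubiquitin ligase gene Ube3c (−0.29 ± 0.099, adjusted p = 0.15).

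Uba1, the enzyme that activates ubiquitin, differed by −0.39 ± 0.12 in EXT vs. TA (adjusted p = 0.14) and −0.31 ± 0.087 in FC vs. TA (adjusted p = 0.11). The ubiquitin gene Ubb differed by −0.35 ± 0.17 in EXT vs. TA and −0.05 ± 0.099 in FC vs. TA. Rps27a, which encodes ubiquitin fused to a ribosomal protein, differed by 0.30 ± 0.10 in EXT vs. TA (adjusted p = 0.15).

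Vcp, the segregase that extracts proteins before degradation, differed by −0.47 ± 0.18 in EXT vs. TA (adjusted p = 0.16) and −0.36 ± 0.098 in FC vs. TA (adjusted p = 0.11). The shuttle gene Ubqln1 differed by −0.36 ± 0.11 and −0.29 ± 0.091, and all 8 shuttle and segregase factors were below 0 in FC vs. TA (median −0.12). Nfe2l1, which encodes NRF1, had differences of 0.03 ± 0.10 in EXT vs. TA and −0.27 ± 0.13 in FC vs. TA. Both comparisons share their TA mice. With batch as a number, 11 of the 36 genes measured in these lists, the member Psmd9 included, passed the FDR in EXT vs. TA, 2 higher and 9 lower, where 21.4% of all rows passed. The higher genes were Rps27a (0.56) and Mafg (0.41), which encodes a small Maf protein, and the lower ones included Vcp (−0.73), Ubb (−0.81), Uba1 (−0.36), Ubqln1 (−0.39) and Usp14 (−0.48), the last a deubiquitinase bound to the proteasome.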

How the data were processed

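TRAP-seq libraries of 44 mice were analysed from 1 table of 8203 genes. Per the labels and the study's methods, the authors used Trimmomatic 0.36, STAR and SAMtools with GRCm38, filtered genes, and deposited log2 values made with edgeR and limma. The deposited log2 values are log2 cpm relative to effective library size with 0.5 reads added, in all 44 columns. Whole reads could be recovered for 360932 of 360932 values (tolerance 0.05 reads), but the tests used the log2 values. The kit does not mark strand and the counting of shared reads is not given in the sources used here. Some coding exon bases of Psma4, Psmb7, Psmc3, Psmd1, Psmd13 and Psme1 also belong to other genes.

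Groups, batch and sex came from the sample labels, with 1 mouse per sample. Each pair of conditions was compared with limma 3.58.1 in R 4.3.3 (lmFit and eBayes, two-sided), with batch as categories and sex as covariates and Benjamini-Hochberg adjustment over 8203 rows at an FDR of 0.05. The study controlled for batch and sex without naming how batch was coded, so batch as a number was the first of 15 other settings tried. Lengths and coordinates came from GENCODE M21. Scripts were tested on simulated data. Named were the catalytic, immunoproteasome and activator subunits, Psmd4 and Psmd14, in each comparison the 3 members with the smallest p in each direction, and the extremes of level and spread. Others were named after their values were seen. Members and lists were chosen with earlier results of these data known.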

Additional observations from a re-analysis of the deposited data

How the results depend on the processing

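With batch as a number and with no batch term, 1 of the 39 genes was called higher and 5 were called lower in EXT vs. TA, compared with 0 in each direction with batch as categories in limma. Without batches 3 and 4, 1 gene (Psme2) was called higher. When each mouse was left out in turn, a choice made after seeing the data, the count called higher was 0 to 1, the 1 being Psme2 without EXT mouse 23, where 472 of 8203 rows were called, compared with 0 to 6 in the other such fits. Without batches 3 and 4 and without mouse 23 the Psme2 difference itself was 0.28, against 0.29 in the main fit. The cause of the changes in calls was not tested. Psmd2 in EXT vs. TA was 0.0226 with batch as a number and 0.0062 with no batch term. In EXT vs. FC, Psmd4 was −0.12 and −0.13 in these fits, Psme2 was −0.0105 with log2 library size as a covariate, and Psme3 was −0.0208 in males only, a split added after seeing the data. The direction of each of these 4 differences was the opposite with batch as categories. In the other alternatives the count of called members stayed at the 0 of the main fit in each comparison and direction. No paired analysis was possible because the labels give each mouse its own number and share none between conditions. Sex rests on the labels alone. For Psme4 and Psmc3ip, the members with the lowest levels, the intervals were among the widest.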
